A study of Mus musculus with 6 samples.

Results

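Expression of 10 genes of de novo fatty acid synthesis was compared among 3 kinds of mouse adipocyte, with 2 arrays per kind. The genes were chosen by name for their place in the pathway: the enzymes Acly, Acaca, Acacb, Fasn, Elovl6, Scd1, Scd2 and Me1, the citrate carrier Slc25a1 and the transcription factor Mlxipl. All 10 were measured, among 17720 genes on the array, by 22 probe sets in all. A probe set is a group of short probes against 1 transcript, and the one with the highest mean over the 6 arrays stood for its gene. Bone marrow-derived adipocytes were sorted from the floating cells of gonadal fat after transplantation of marrow from a marked donor into the mice. The marker was green fluorescent protein (GFP) on 1 array and beta-galactosidase (LacZ), made visible with a fluorescent substrate, on the other, so the marrow-derived pair differs in donor marker as well as in sample. White adipocytes came from gonadal fat, and the brown ones from the intrascapular depot. All tissue was digested with collagenase, RNA of at least 6 sorts was pooled per sample, and the RNA was amplified before labelling. Strain, sex, age, diet, feeding state and treatment of the animals, the promoters behind the markers and any difference in handling between the groups are not given in the labels used here. The labels call the 2 samples of a group biological replicates, but whether they came from separate animals is not stated. The tests therefore take only the spread seen between them, and some of it may be technical.

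De novo fatty acid synthesis turns carbon from glucose into fat. Citrate leaves the mitochondrion through the carrier Slc25a1, Acly splits it into acetyl-CoA, the acetyl-CoA carboxylases Acaca and Acacb make malonyl-CoA from that, and Fasn builds palmitate with NADPH that Me1 helps to supply. Elovl6 lengthens palmitate, and the stearoyl-CoA desaturases Scd1 and Scd2 put in a double bond. Mlxipl, also called ChREBP, is a transcription factor that switches on genes of this pathway when glucose is plentiful. Brown fat is known for carrying out much of this synthesis while it burns fat.

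Values are log2 expression values, and a value after ± beside a difference is the standard error (SE) from limma with 2 arrays per group. A gene is called here when its limma p, adjusted over all 17720 genes of a comparison, is under 0.05. Across genes, which are not independent replicates, arrays of 1 group correlated at 0.969 (marrow-derived), 0.981 (white) and 0.992 (brown). The adipocyte markers were present on every array: the mean log2 value of 12 measured markers was 11.68 on the first marrow-derived array (GFP) and 11 on the second (LacZ), and 12.48 to 12.90 on the others. The brown marker Ucp1, the uncoupling protein of heat production, stood at 13.58 and 13.53 on the brown arrays and at 4.84 to 7.68 elsewhere. Markers of other cells were measured on every array too. The mean of 16 macrophage markers was 11.52 on the GFP and 9.01 on the LacZ array, 11.40 and 10.13 on the white and 9.01 and 8.49 on the brown arrays. The mean of 12 endothelial markers was 11.57 and 12.07 on the GFP and LacZ arrays, 8.46 and 7.40 on white and 11.12 and 10.69 on brown arrays. In the same order, the mean of 10 preadipocyte and fibroblast markers was 10.61 and 10.33, 9.76 and 8.68, and 8.07 and 7.33. That of 6 mesothelial markers was 8.08 and 6.07, 7.11 and 7.16, and 3.85 and 4.15. That of 8 smooth muscle and pericyte markers was 9.5 and 10.12, 8.17 and 8.08, and 8.43 and 8.26. In such pooled RNA, fewer adipocytes and less RNA of a gene per adipocyte cannot be told apart.

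Brown adipocytes had the highest and marrow-derived adipocytes the lowest mean for 8 of the 10 genes, an order that 20.1% of all genes share. The exceptions were Acacb, lowest in white adipocytes, and Scd2, highest in white adipocytes. The mean over the 10 genes was 10.81 (GFP) and 9.43 (LacZ) in the marrow-derived pair, 11.23 and 11.83 on the white arrays and 12.50 and 12.72 on the brown arrays. The spread within a group was largest in the marrow-derived pair: the root mean square difference over the 10 genes was 1.77 there, 0.71 in the white and 0.345 in the brown pair. Over all genes those values were 0.766, 0.593 and 0.396.

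**Figure D1:**
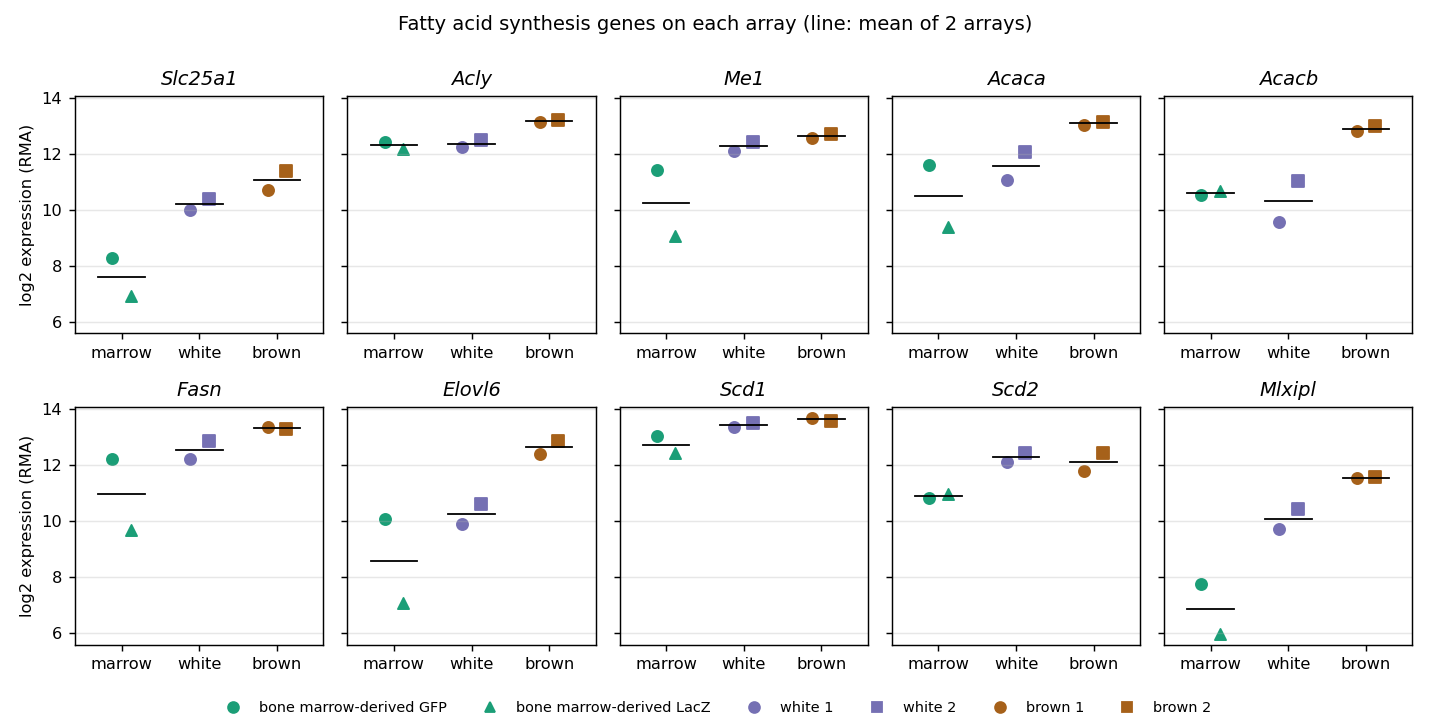
Log2 expression (vertical axis) of the main probe set of each gene on the 6 arrays, by group (horizontal axis), with a line at the mean of the 2 arrays of a group. Brown points lie above both marrow-derived points in all 10 panels, and the GFP and LacZ points lie 2 or more log2 units apart for Me1, Acaca, Fasn and Elovl6.

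The first comparison asked how marrow-derived adipocytes differ from the white adipocytes of the same depot. Slc25a1, Mlxipl and Scd2 were lower in the marrow-derived cells, by 6.03-, 9.32- and 2.63-fold, and 0 of the 10 genes were higher. The other 7, which include Fasn and both acetyl-CoA carboxylases, did not pass the test. Over all genes 13.6% were called lower and 12.2% higher, 25.8% in all. The median difference of the 10 genes was -1.49, against -0.07 over all genes and -1.55 over the 12 adipocyte markers, of which 6 were called lower and 0 higher (3 lower without either white or either brown array). The part of overall adipocyte RNA in the difference was not tested. Both marrow-derived arrays lay below both white arrays for 5 of the 10 genes, as for 35.8% of all genes. The count of 3 became 0 without white replicate 2 (4 at an unadjusted limma p under 0.05) and 7 without the GFP array, where Acaca, Fasn, Scd1, Elovl6 and Me1 passed and Scd2 did not. With each array centred on its median, 36.6% of all calls were higher in marrow-derived cells, against 47.4% as deposited, and 4 of the 10 genes were lower.

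The second comparison set marrow-derived against brown adipocytes. Every marrow-derived array lay below every brown array for all 10 genes, as for 32% of all genes, while 33% of all genes lay above without overlap. Mlxipl (25.7-fold), Elovl6 (16.6-fold), Slc25a1 (10.9-fold), Acacb (4.95-fold), Scd2 (2.36-fold) and Acly (1.83-fold) were lower, and 0 were higher. Over all genes 11.7% were called lower and 8.71% higher, 20.4% in all. The median difference of the 10 genes was -2.38, against 0.02 over all genes and -1.30 over the adipocyte markers, of which 5 were called lower (8 without the GFP array, 1 and 0 without brown replicate 1 and 2). The count of 6 became 0 without either brown array (6 and 7 at an unadjusted limma p under 0.05), when 476 and 300 of 17720 genes were called at all. It was 8 without the GFP array, where Acaca, Fasn, Scd1 and Me1 passed and Acacb and Scd2 did not. It was 4 without the LacZ array, where the calls of Acacb, Acly and Scd2 were lost and Me1 passed, and 28.5% of all calls were higher after median centring, against 42.7% as deposited.

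White and brown adipocytes were compared as the conventional kinds of fat cell. Acacb was the 1 gene of the 10 that passed, at 6.03-fold lower in white, while 5.34% of all genes were called lower in white and 3.87% higher, 9.21% in all. White arrays lay below brown arrays without overlap for 9 of the 10, as for 29.7% of all genes, and the median difference was -0.83, against 0.02 over all genes. The call of Acacb was lost without either brown array (adjusted p = 0.20 and 0.177), when 7 and 5 of all genes were called. Without either marrow-derived array Acacb, Elovl6 and Mlxipl passed. The comparisons share arrays: a low marrow-derived value enters both of the first 2, and a high brown value both of the last 2.

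**Figure D2:**
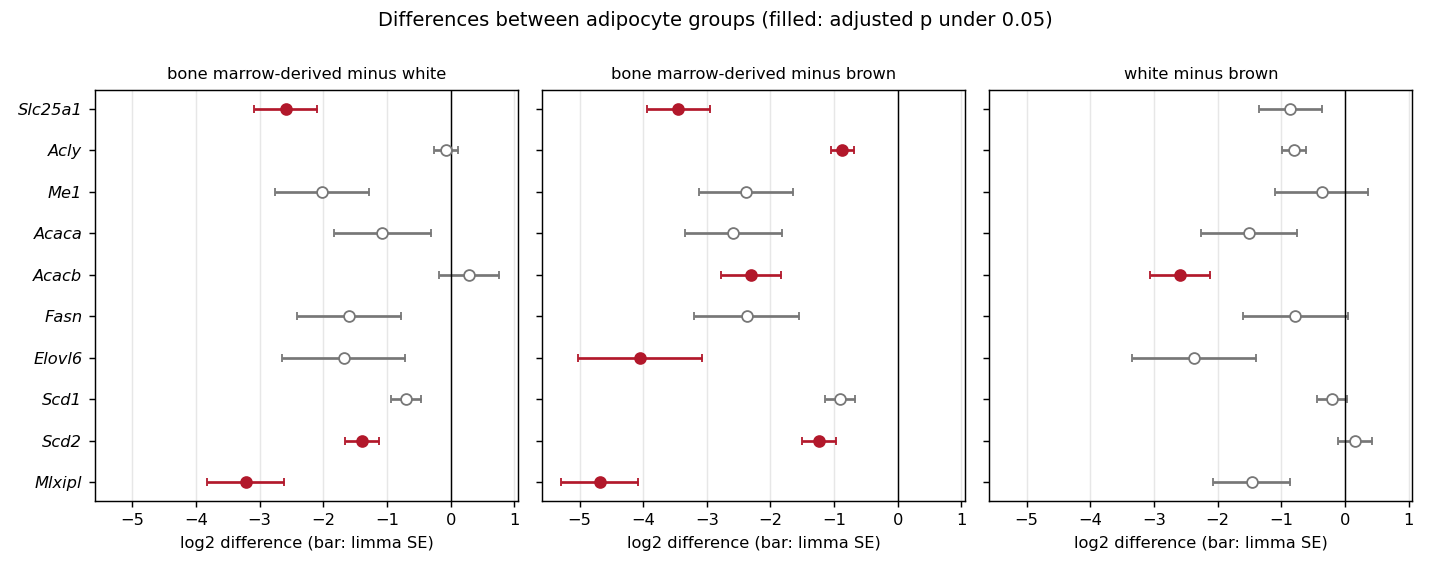
Log2 difference between groups (horizontal axis) with limma's SE for each gene (vertical axis), 1 panel per comparison, filled red where the adjusted p is under 0.05. All 10 points lie left of 0 against brown, where 6 are filled, while Acly and Acacb lie at -0.07 and 0.29 against white.

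The upstream sequences of 4 genes are shown as examples of different patterns, chosen after their values were seen. Slc25a1 and Mlxipl were low on both marrow-derived arrays, and Fasn was low on the LacZ array. Acly, the enzyme that acts 2 steps before Fasn, was only just below the white arrays there (12.17, against 12.23 and 12.5). Each is the 250 bases before a RefSeq transcript start in build GRCm38.p6, 5′ to 3′ on the gene's strand. Capitals mark matches, on either strand, to the E-box CACGTG, the CCAAT box CCAAT, the GC box GGGCGG or the sterol regulatory element core TCACNCCAC.
Slc25a1, chr16:17928220-17928469, minus strand: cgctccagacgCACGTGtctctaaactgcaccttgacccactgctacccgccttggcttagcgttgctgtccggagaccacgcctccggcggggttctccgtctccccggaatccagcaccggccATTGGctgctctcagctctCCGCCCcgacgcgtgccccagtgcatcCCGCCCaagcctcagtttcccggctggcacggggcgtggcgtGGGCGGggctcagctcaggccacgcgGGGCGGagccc
Mlxipl, chr5:135089640-135089889, plus strand: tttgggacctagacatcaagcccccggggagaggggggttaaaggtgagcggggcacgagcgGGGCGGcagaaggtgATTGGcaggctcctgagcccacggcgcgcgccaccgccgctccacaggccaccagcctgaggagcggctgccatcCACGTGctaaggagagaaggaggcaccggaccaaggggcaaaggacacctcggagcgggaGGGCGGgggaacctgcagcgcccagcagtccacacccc
Fasn, chr11:120824548-120824797, minus strand: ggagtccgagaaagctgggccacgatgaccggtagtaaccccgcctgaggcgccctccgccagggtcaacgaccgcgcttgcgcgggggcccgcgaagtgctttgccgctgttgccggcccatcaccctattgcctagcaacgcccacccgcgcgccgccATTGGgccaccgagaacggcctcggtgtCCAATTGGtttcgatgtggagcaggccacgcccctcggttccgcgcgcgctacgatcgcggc
Acly, chr11:100528001-100528250, minus strand: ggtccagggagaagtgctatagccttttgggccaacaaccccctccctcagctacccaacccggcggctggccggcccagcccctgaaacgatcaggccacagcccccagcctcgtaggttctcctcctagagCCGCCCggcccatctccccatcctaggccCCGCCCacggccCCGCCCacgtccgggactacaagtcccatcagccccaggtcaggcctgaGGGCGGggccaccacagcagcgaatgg
In the windows shown, Slc25a1 and Mlxipl each held 1 E-box, 1 CCAAT box and GC boxes, 4 in Slc25a1 and 2 in Mlxipl. The window at the other start of Mlxipl, not shown, held a sterol element core but no E-box, CCAAT box or GC box. Fasn held 3 CCAAT boxes, of which 2 overlap on opposite strands (CCAATTGG), and Acly held 4 GC boxes and no CCAAT box. The windows of Acaca and Elovl6, which like Fasn were low on the LacZ array and within the white range on the GFP array, held 0 of the motifs searched. Each is the window of 1 RefSeq start, and whether it is the main promoter of its gene was not tested. RefSeq starts were found for 8 of the 10 genes, 10 starts in all, and Scd1 and Scd2 had none in the table. The E-box was in 2 of these 10 windows and in 6.02% of 32851 windows over all genes. The CCAAT box was in 5 of 10 (33.8% over all), the GC box in 4 of 10 (32.7%) and the sterol element core in 1 of 10 (1.05%), at another start of Mlxipl. A relaxed carbohydrate response element, CACGNG and CNCGTG with 5 bases between, and a nuclear receptor repeat, AGGTCA and AGGTCA with 4 bases between, were in 0 of 10 (0.0396% and 0.0152% over all). A match is a description of letters and not evidence of binding.

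Carbon and reducing power enter the pathway through Slc25a1, Acly and Me1. The citrate carrier Slc25a1 (probe set 1428190_at) stood at 8.28 on the GFP and 6.93 on the LacZ array, 9.99 and 10.40 on the white and 10.72 and 11.39 on the brown arrays. Both marrow-derived arrays were below all other arrays. The difference was -2.59 ± 0.50 from white (adjusted p = 0.0194) and -3.45 ± 0.50 from brown (adjusted p = 0.0119). Its call against white was lost without either white array (adjusted p = 0.0525 and 0.0924). Acly, which makes cytosolic acetyl-CoA (1439459_x_at), stood at 12.42 and 12.17 on the GFP and LacZ arrays, 12.23 and 12.50 on white and 13.14 and 13.19 on brown arrays. The marrow-derived values lay at the level of the white ones, with a difference of -0.07 ± 0.19 (adjusted p = 0.819), and below the brown ones (-0.87 ± 0.19, adjusted p = 0.0315). White minus brown was -0.80 ± 0.19 (adjusted p = 0.0624). The cytosolic malic enzyme Me1 (1416632_at), which makes NADPH, stood at 11.42 on the GFP and 9.08 on the LacZ array, 12.10 and 12.43 on white and 12.57 and 12.70 on brown arrays. Both marrow-derived arrays were low, the LacZ array most, and their SD was 1.65 (n = 2). The differences were -2.02 ± 0.74 from white (adjusted p = 0.106) and -2.39 ± 0.74 from brown (adjusted p = 0.0786). Without the GFP array the differences were -3.19 and -3.55 (adjusted p = 0.0046 and 0.00432), and against brown Me1 also passed without the LacZ array (-1.22, adjusted p = 0.0362).

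The acetyl-CoA carboxylases followed different patterns. Acaca, the cytosolic form that feeds fatty acid synthesis (1434185_at), stood at 11.60 on the GFP and 9.40 on the LacZ array, 11.07 and 12.08 on white and 13.02 and 13.15 on brown arrays. The GFP array lay between the white arrays and the LacZ array below both. Differences were -1.07 ± 0.76 from white (adjusted p = 0.364) and -2.58 ± 0.76 from brown (adjusted p = 0.0693). Without the GFP array they were -2.18 and -3.68 (adjusted p = 0.0321 and 0.0123), and without the LacZ array the difference from white was 0.03 (adjusted p = 0.975). Acacb, the form at the outer mitochondrial membrane whose malonyl-CoA restrains fatty acid oxidation (1427052_at), stood at 10.53 and 10.66 on the GFP and LacZ arrays, 9.58 and 11.04 on white and 12.82 and 12.98 on brown arrays. Both marrow-derived arrays lay between the white arrays, and the brown arrays stood above the rest. Marrow-derived minus white was 0.29 ± 0.47 (adjusted p = 0.711), and it turned to -0.44 without white replicate 1 (adjusted p = 0.252). The difference from brown was -2.31 ± 0.47 for marrow-derived (adjusted p = 0.0283) and -2.59 ± 0.47 for white adipocytes (adjusted p = 0.0339).

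Fasn, the fatty acid synthase itself (1423828_at, its only probe set), stood at 12.23 on the GFP and 9.68 on the LacZ array, 12.22 and 12.87 on white and 13.36 and 13.30 on brown arrays. The GFP value lay just inside the white range and the LacZ value far below it. The difference from white was -1.59 ± 0.82 (adjusted p = 0.222) and from brown -2.37 ± 0.82 (adjusted p = 0.103). Neither passed, with an SD of 1.81 (n = 2) in the marrow-derived pair. Without the GFP array the differences were -2.87 and -3.65 (adjusted p = 0.00776 and 0.0063). White minus brown was -0.78 ± 0.82 (adjusted p = 0.605).

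Chain lengthening and desaturation fall to Elovl6, Scd1 and Scd2. Elovl6 (1417404_at) stood at 10.09 on the GFP and 7.07 on the LacZ array, 9.91 and 10.61 on white and 12.39 and 12.87 on brown arrays. As with Acaca and Fasn, the GFP value was within the white range and the LacZ value was the lowest of all arrays. It differed by -4.05 ± 0.97 from brown (adjusted p = 0.0414) and by -1.68 ± 0.97 from white (adjusted p = 0.27), while white minus brown was -2.37 ± 0.97 (adjusted p = 0.203). The call against brown was lost without either white array (adjusted p = 0.064 each), although the difference itself does not use those arrays. Scd1, the main desaturase of adipocytes (1415964_at), stood at 13.02 and 12.43 on the GFP and LacZ arrays, 13.35 and 13.51 on white and 13.69 and 13.57 on brown arrays. These values are near the upper end of the arrays, with at most 1.37% of genes at or above Scd1 on any array, so differences may be understated. The marrow-derived arrays were lowest, by -0.70 ± 0.24 against white (adjusted p = 0.0902) and -0.91 ± 0.24 against brown (adjusted p = 0.0534), and neither passed. Both passed after median centring (adjusted p = 0.0447 and 0.0277). Scd2, a related desaturase found in many tissues (1415822_at), stood at 10.81 and 10.95 on the GFP and LacZ arrays, 12.12 and 12.42 on white and 11.79 and 12.44 on brown arrays. White and brown arrays overlapped, and both marrow-derived arrays lay below all of them, close together. The differences were -1.39 ± 0.27 from white (adjusted p = 0.0193) and -1.24 ± 0.27 from brown (adjusted p = 0.032). Its call against white was lost without the GFP (adjusted p = 0.0544), the LacZ (0.0501) or the white replicate 2 array (0.0949).

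Mlxipl (1419185_a_at), a carbohydrate-responsive transcription factor, had the largest difference from both groups among the 10 main probe sets. It stood at 7.75 on the GFP and 5.98 on the LacZ array, 9.73 and 10.44 on white and 11.52 and 11.58 on brown arrays. Both marrow-derived arrays lay below the white ones, which lay below the brown ones. Differences were -3.22 ± 0.60 from white (adjusted p = 0.0179), -4.68 ± 0.60 from brown (adjusted p = 0.00883) and -1.46 ± 0.60 for white minus brown (adjusted p = 0.203). The call against white was lost without white replicate 2 (adjusted p = 0.087) or either brown array (0.0544 each). Its 1 probe set does not separate the transcripts of its different starts. Any part of Mlxipl in the values of the other genes was not tested.

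The marrow-derived arrays differed from each other more for some genes than for others. With no replicate of either donor marker, these differences have no test. Elovl6 was 8.13-fold, Fasn 5.89-fold, Me1 5.05-fold, Acaca 4.61-fold, Mlxipl 3.40-fold and Slc25a1 2.54-fold higher on the GFP than on the LacZ array. These 6 of 10 genes reached a log2 difference of 1, as did 6.98% of all genes, and 3.92% of all genes reached it in the other direction. By its main probe set, near the upper end of the arrays, Scd1 was 1.5-fold higher on the GFP array, while its other probe set, 1415965_at, was higher there by 3.08 on the log2 scale and is not in the count of 6. Acly was 1.19-fold higher on the GFP array, while Acacb and Scd2 were 1.09- and 1.10-fold higher on the LacZ array. Against the white pair, the GFP array lay within the range for 5 genes (Acly, Acaca, Acacb, Fasn and Elovl6) and below it for the other 5, and 15.7% of all genes lay within. The LacZ array lay within for 1, Acacb, and below for 9, and 44.5% of all genes lay below.

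Other genes differed between the marrow-derived arrays as well. Of 16 macrophage markers 15 were at least 1 log2 unit higher on the GFP array (0 were so on the other), with a median difference of 2.84. Their summed level, taken off the log scale, was 72600 on the GFP and 15100 on the LacZ array, 67200 and 30200 on white and 15600 and 10100 on brown arrays. Of 12 adipocyte markers 4 were at least 1 higher on the GFP array, with a median difference of 0.69 and summed levels of 51600 and 35800, against 88500 and 98600 on white and 75300 and 78100 on brown arrays. Of 11 brown adipocyte markers 7 were at least 1 higher on the GFP array, with a median difference of 1.17. Largest among them were Cidea (4.87), Cox8b (3.87) and Ucp1 (2.75), while Prdm16 (-0.74), Ebf2 (-0.39) and Zic1 (-0.20) were lower there. On the LacZ array Cidea (3.66), Cox8b (5.48) and Ucp1 (4.93) stood near or below the lowest array median of 5.46. So did Dio2 (3.60), Ppargc1a (3.40) and Ppara (3.95), also in the count of 7, so the sizes are uncertain. Zic1 stood at 1.87 and 2.07 on the GFP and LacZ arrays, at the lower end. The mean of the 11 was 6.65 on the GFP and 5.14 on the LacZ array, 7.08 and 6.84 on white and 10.88 and 11.05 on brown arrays. All 6 mesothelial markers were at least 1 higher on the GFP array too, with a median of 1.92. All 12 endothelial and all 8 smooth muscle and pericyte markers were higher on the LacZ array, as were 59.2% of all genes. The medians for these markers were 0.50 and 0.66. The part of all these marker genes in the difference of the fatty acid synthesis genes was not tested. The white arrays also differed: all 10 genes were higher on white replicate 2, by 0.16 to 1.46, as were 58.5% of all genes, and there the macrophage markers were lower.

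**Figure D3:**
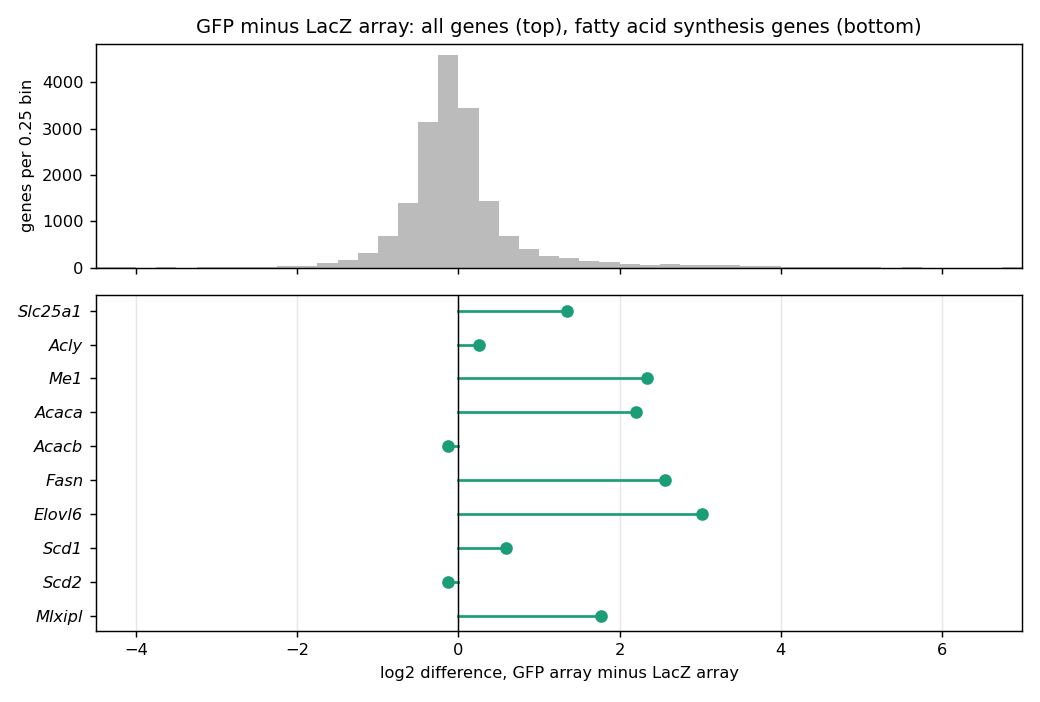
Difference in log2 expression between the GFP and LacZ arrays (horizontal axis), as the number of genes per bin of 0.25 over all 17720 genes (top) and for each of the 10 genes (bottom). Elovl6, Fasn, Me1 and Acaca lie beyond 2, while Acly, Acacb and Scd2 lie near 0.

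Further probe sets were present for 7 of the 10 genes. For Scd1, 1415965_at stood at 9.76 on the GFP and 6.68 on the LacZ array, 11.33 and 11.80 on white and 12.26 and 12.60 on brown arrays. It thus spread the arrays farther than the main probe set, and in a fit over all 33565 named probe sets it was 18.5-fold lower in marrow-derived than in brown cells (-4.21 ± 0.95, adjusted p = 0.0352) and differed by -3.34 ± 0.95 from white (adjusted p = 0.0531). For Scd2, 1415823_at stood at 7.56 and 8.64 on the GFP and LacZ arrays, 11.23 and 11.77 on white and 9.91 and 11.87 on brown arrays. It was 10.6-fold lower in marrow-derived than in white cells (-3.40 ± 0.70, adjusted p = 0.022) and 6.94-fold lower than in brown (-2.80 ± 0.70, adjusted p = 0.0468). The third Scd2 probe set, 1415824_at, ran from 6.63 to 8.84 and did not pass in any comparison (adjusted p = 0.301, 0.609 and 0.672). With the mean of its 3 probe sets, Scd2 differed from brown by -1.53 (adjusted p = 0.108).

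For Acly, 1451666_at stood at 11.84 to 12.18 on the marrow-derived and white arrays and at 12.94 and 13.09 on the brown arrays. The probe set 1425326_at spread farther, at 8.61 and 8.86 on the GFP and LacZ arrays, 8.31 and 8.93 on white and 10.72 and 11.76 on brown arrays. By 1425326_at Acly was 5.70-fold lower in marrow-derived and 6.17-fold lower in white than in brown adipocytes (adjusted p = 0.0146 and 0.0215), and by 1451666_at 2.06- and 2.00-fold lower (adjusted p = 0.026 and 0.0463). So 2 further probe sets called Acly lower in white than in brown, where the main one did not pass. The second probe sets of Elovl6 (1417403_at, 4.90 to 11.69), Me1 (1430307_a_at, 7.19 to 12.15) and Acaca (1427595_at, 4.08 to 9.74) had their lowest value on the LacZ array and their highest on a brown array, as the main ones did. Me1 was lower in marrow-derived than in brown cells by its second probe set (-3.30 ± 0.78, adjusted p = 0.0393). The remaining probe sets, 1445754_at of Acacb, 1442656_at of Elovl6 and 1446315_at and 1438389_x_at of Acly, stayed between 2.32 and 5.13 on all arrays, near the lower end, and did not pass in any comparison.

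**Figure D4:**
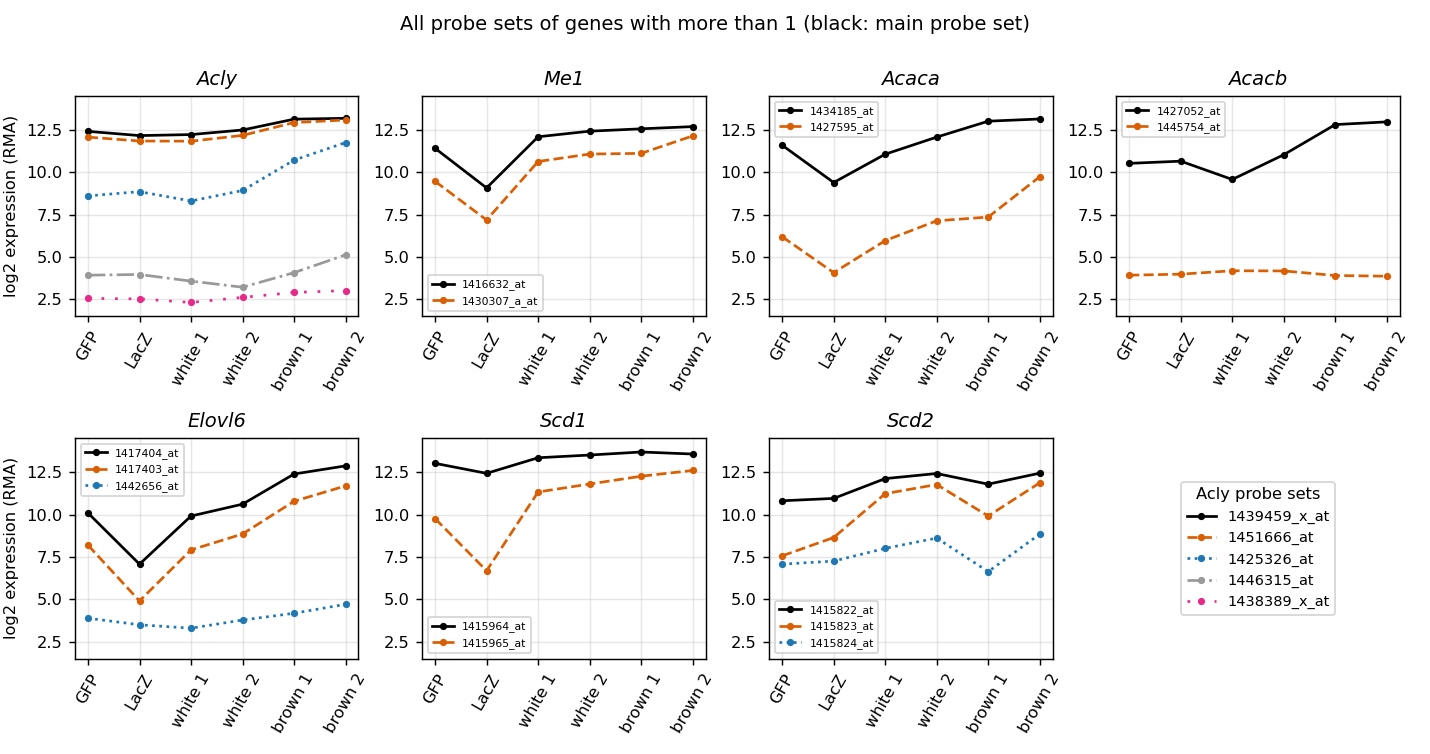
Log2 expression (vertical axis) of every probe set of the 7 genes with more than 1, over the 6 arrays (horizontal axis), with the main probe set in black; lines join the values of a probe set and carry no order. The Scd1 probe sets part most on the LacZ array, at 12.43 and 6.68.

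Genes of 7 related lists were described in the same way, beginning with those that supply carbon. Of 13 measured genes of acetyl-CoA and citrate supply, 6 were lower in marrow-derived than in white adipocytes (46.2%, against 13.6% of all genes). Against brown 11 were lower (84.6%, against 11.7% of all genes), and 0 were higher in either comparison. The medians were -0.92 and -1.76. Among the called genes, the largest differences from white were in the mitochondrial dicarboxylate carrier Slc25a10 (-2.70 ± 0.55), the pyruvate carrier subunit Mpc1 (-1.82 ± 0.31) and Aacs, which activates acetoacetate (-1.60 ± 0.43). Among those called against brown they were in Acss1, a mitochondrial acetyl-CoA synthetase (-2.81 ± 0.26), Mpc1 (-2.57 ± 0.31) and Aacs (-2.50 ± 0.43). The pyruvate carboxylase gene Pcx, at -2.69 ± 0.78 from white and -2.54 ± 0.78 from brown, did not pass (limma adjusted p = 0.0578 and 0.0762). Acss1 was the 1 gene of this list lower in white than in brown (-2.17 ± 0.26), which is 7.69% of the list, against 5.34% of all genes. The count against white was 0 without white replicate 2 (11 genes had an unadjusted limma p under 0.05 with all arrays) and 2 without any 1 of the LacZ, white replicate 1, brown replicate 1 and brown replicate 2 arrays. The count against brown was 0 without either brown array, and that of white against brown was 5 without either marrow-derived array and 0 without either brown array.

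Of 15 listed genes of NADPH supply 14 were measured, as G6pdx had no probe set with 1 gene symbol. Of the 14, 6 were lower in marrow-derived than in white cells (42.9%, against 13.6% of all genes). Against brown 9 were lower (64.3%, against 11.7% of all genes), and 0 were higher in either comparison. The medians were -0.81 and -1.24. The lower genes included H6pd, the hexose-6-phosphate dehydrogenase of the endoplasmic reticulum (-2.74 ± 0.39 from white, -1.92 ± 0.39 from brown). Among them were also the folate enzyme Aldh1l1 (-2.40 ± 0.21 from white) and Pgd, of the pentose phosphate pathway (-1.70 ± 0.31 from white). Against brown, the transaldolase Taldo1 (-2.01 ± 0.25) and the mitochondrial malic enzyme Me3 were lower too. Me3 stood at 8.71 and 8.53 on the brown arrays and at 2.91 to 4.87 on the others, near the lower end of the arrays, so the size of its difference is not given. It was also the 1 gene of the list called lower in white than in brown (limma adjusted p = 0.0164). That is 7.14% of the list, against 5.34% of all genes. Without white replicate 2 the count against white was 1, without either brown array the counts against brown were 0, and the call of Me3 in white against brown was also lost without white replicate 2.

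Genes that bring in and commit glucose were called in both directions. Of 9 measured, 3 were lower and 2 higher in marrow-derived than in white cells (33.3% and 22.2%, against 13.6% and 12.2% of all genes). The insulin-responsive hexokinase Hk2 (-3.29 ± 0.49) and glucose transporter Slc2a4 (-2.25 ± 0.23) were lower, while the widely expressed Hk1 was higher (1.74 ± 0.26), with a median over the list of -0.06. Against brown 5 were lower (55.6%, against 11.7% of all genes) and 0 higher. They were led by Hk2 (-4.01 ± 0.49), the phosphofructokinase Pfkl (-3.22 ± 0.19) and Slc2a4 (-2.65 ± 0.23). White cells were lower than brown in 4 (44.4%, against 5.34% of all genes). Among these were Pfkl (-2.14 ± 0.19), Pfkm (-1.79 ± 0.37) and Hk1 (-1.64 ± 0.26). Without white replicate 2 the count against white was 1, the counts of marrow-derived against brown were 2 and 1 without brown replicate 1 and 2, and those of white against brown were 1 without either white and 0 without either brown array.

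Of 9 measured genes that act on acetyl-CoA carboxylase or on its product, malonyl-CoA, 2 were lower in marrow-derived than in white cells. That is 22.2%, against 13.6% of all genes. Against brown 5 were lower and 1 higher (55.6% and 11.1%, against 11.7% and 8.71% of all genes). Prkaa2, a catalytic subunit of the AMP-activated kinase that inhibits the carboxylases, was lower than in white (-3.46 ± 0.26) and brown (-4.04 ± 0.26). It stood at 5.30 and 4.85 on the GFP and LacZ arrays, below the lowest array median of 5.46, so the size of its differences is uncertain. Trib1, which targets proteins for breakdown, was lower than in white (-1.62 ± 0.30). Mlycd, which breaks down malonyl-CoA, was lower in marrow-derived than in brown cells (-2.13 ± 0.28). It was also the 1 gene of the list lower in white than in brown (-1.35 ± 0.28), which is 11.1%, against 5.34% of all genes. The 1 higher gene was Brca1, better known for DNA repair, at 6.93 and 6.73 on the GFP and LacZ arrays and 3.72 and 4.09 on the brown arrays, the latter near the lower end. Without white replicate 2 the count against white was 1, the count of 6 against brown was 1 to 3 without any 1 array, and the count of 1 in white against brown was 0 without any 1 array other than white replicate 2.

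Of 19 measured regulators of lipogenic transcription, 3 were lower and 1 higher in marrow-derived than in white cells, which is 15.8% and 5.26% of the list, against 13.6% and 12.2% of all genes. They were Insig2, which holds sterol regulatory element-binding proteins in the endoplasmic reticulum (-1.58 ± 0.24), the retinoid receptor Rxra (-1.25 ± 0.22), the liver X receptor Nr1h3 (-1.09 ± 0.19), and upward the general factor Sp1 (0.76 ± 0.17), named after its value was seen. Against brown 5 were lower and 0 higher (26.3% lower, against 11.7% of all genes). Among them was Srebf1, which encodes a sterol regulatory element-binding protein that drives lipogenic genes (-1.37 ± 0.34). Others were Spring1, which acts in its activation (-1.34 ± 0.28), and Thrsp, a lipogenic protein (-1.17 ± 0.25). Thrsp is also counted in the list of acetyl-CoA carboxylase control. Limma called 0 between white and brown, with 5 at an unadjusted p under 0.05. List medians were -0.28, -0.33 and -0.18 in the 3 comparisons, in the order given above. The count of 4 against white was 7 without the GFP array and 0 without white replicate 2. The count of 5 against brown was 2 without the LacZ array, 1 without either white array and 0 without either brown array.

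Other elongases and desaturases moved both ways. Of 20 measured, 4 were lower and 1 higher in marrow-derived than in white cells (20% and 5%, against 13.6% and 12.2% of all genes). Against brown 5 were lower and 2 higher (25% and 10%, against 11.7% and 8.71% of all genes). In white against brown 2 were lower and 2 higher (10% each, against 5.34% and 3.87% of all genes). Elovl3, the elongase of very long chains known from brown fat, stood at 9.09 and 10.93 on the brown arrays and at 2.48 to 3.18 on all others, the lower end of the arrays. It was lower in marrow-derived and in white than in brown cells (limma adjusted p = 0.00387 and 0.00776), and no fold is given against values so low. Elovl4 was lower in both too, at 3.27 to 3.87 against 5.37 and 5.8 on the brown arrays, also near the lower end. The dehydratase family gene Hacd4 was higher in marrow-derived than in brown cells (2.07 ± 0.48). Against white, the desaturase family gene Fads3 (-2.09 ± 0.26) and the dehydratase Hacd2 (-2.03 ± 0.22) were lower and the delta-6 desaturase Fads2 was higher (1.45 ± 0.22) in marrow-derived cells. Fads3 was higher in white than in brown cells (1.87 ± 0.26). The count of 5 against white was 3 without the LacZ array or either white array, and the count of 7 against brown was 2 and 1 without brown replicate 1 and 2. The count of 4 between white and brown was 2 and 1 without white replicate 1 and 2, and 1 and 0 without brown replicate 1 and 2.

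Mitochondria hold a separate fatty acid synthesis pathway, which makes the precursor of lipoic acid. Of its 9 measured genes 8 were lower in marrow-derived than in white cells and 9 lower than in brown, with medians of -1.52 and -2.14. These are 88.9% and 100% of the list, against 13.6% and 11.7% of all genes. Mecr, the last reductase of the cycle (-2.31 ± 0.54), the lipoyltransferase gene Lipt1 (-2.06 ± 0.26) and the condensing enzyme Oxsm (-2.02 ± 0.18) differed most from white. Against brown the largest were Lipt1 (-3.56 ± 0.26), the malonyl-CoA synthetase Acsf3 (-3.40 ± 0.19) and Mecr (-3.34 ± 0.54). Acsf3 (-1.88 ± 0.19) and Lipt1 (-1.50 ± 0.26) were lower in white than in brown as well (22.2% of the list, against 5.34% of all genes). The GFP array was higher than the LacZ array for 8 of the 9, by a median of 0.41, against 1.55 over the 10 genes of de novo synthesis. The count against white was 4 and 3 without white replicate 1 and 2 and 5 without either brown array. The count against brown was 3 without either brown array, and that between white and brown was 1 without either white and 0 without either brown array.

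**Figure D5:**
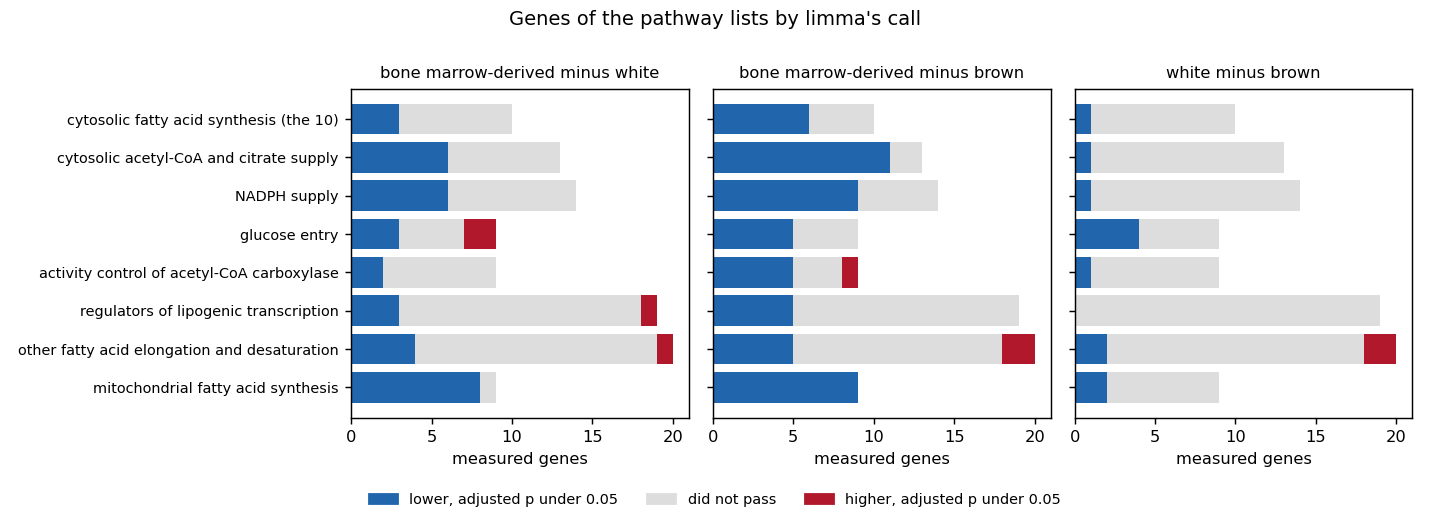
Number of measured genes (horizontal axis) that were lower (blue), higher (red) or did not pass (grey) at an adjusted limma p under 0.05, for the 10 genes and 7 related lists, 1 panel per comparison. The mitochondrial list is blue in 8 of 9 genes against white and 9 of 9 against brown, while the 10 genes are blue in 3 and 6.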

How the data were processed

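The deposited table held log2 expression values, 1 column per array and 43057 probe sets, made by the authors with RMA and Partek per the submitters' processing notes, which give no version or order. RMA subtracts background, equalizes the array distributions and summarizes probes on the log2 scale; the log base was taken from the values (1.67 to 13.97, array medians 5.46 to 5.72). RMA gives no detection calls, and the number of arrays limits the precision. Of the probe sets, 33565 had 1 gene symbol in the platform annotation, 857 several and 8635 none here, and 33376 matched RefSeq by gene ID. The probe set with the highest mean stood for each of 17720 genes. All 6 arrays were fitted with 3 group means in limma 3.58.1 (R 4.3.3) with empirical Bayes moderation (3 residual and 2.35 prior degrees of freedom), with two-sided p-values adjusted by Benjamini and Hochberg's method for all genes and a threshold of 0.05. The fit was tested on simulated data. An exact permutation test of 2 against 2 arrays cannot go below 0.333 and was not used. All 10 genes are named. Of the related lists, up to 3 called genes with the largest difference per comparison are named. Genes and lists were chosen with earlier results of these data known. List genes that no named probe set measured were not analysed here. Summed levels add values taken back from the log2 scale. Upstream motifs were searched on both strands of RefSeq windows. Alternatives left out each array, added the replicate number, rescaled, filtered, changed the probe set or changed the moderation.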

Additional observations from a re-analysis of the deposited data

How the results depend on the processing

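The number of the 10 genes called by limma (3, 6 and 1 for marrow-derived against white, marrow-derived against brown and white against brown) ranged from 0 to 7, 0 to 8 and 0 to 3 when 1 array was left out. Where an arm was left with 1 array, that array is assumed to vary like the others. Without moderation the counts were 0, 0 and 0, with 3, 6 and 2 at an unadjusted p under 0.05. White against brown gave 3 with only the 4 arrays of the comparison and 2 with an intensity trend. The other alternatives kept each count within 1.5 times. Of 450 gene values over all alternatives, 372 kept direction and call, 45 lost and 26 gained a call, and 7 reversed, none of them called. In marrow-derived minus white, Acaca ranged from -2.18 to 0.027 over the fits without 1 array (0.027 without LacZ), Acly from -0.21 to 0.063 (0.053 without LacZ, 0.063 without white replicate 2) and Acacb from -0.44 (without white replicate 1) to 1.01. Acly turned to 0.002 with quantile normalization and to 0.13 with the mean of its probe sets. In white minus brown, Scd2 ranged from -0.17 (without brown replicate 1) to 0.48. The cause was not tested. Median centring moved the median of all genes by -0.17 and -0.19 in the marrow-derived comparisons and reversed none of the 10. Replicate numbers are in the labels, and deviations from the group means correlated at 0.205, -0.004 and 0.277 between groups. With 1 pair per group, these values cannot show whether arrays of the same number shared handling. The main fit left the numbers out. With the replicate block the counts were 3, 4 and 1, and the calls of Acly (adjusted p = 0.0558) and Elovl6 (0.064) against brown were lost.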

Other observations

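Among 7030 other genes whose SD over the 6 arrays was at least 0.5, the 5 with the highest Pearson correlation to the mean of the 10 genes were Cmc2 (0.997), Dio2 (0.996), Clstn3 (0.993), Uck1 (0.993) and Calr3 (0.992). These are descriptions over 6 arrays in 3 groups, picked as the highest of many, and the arrays share RNA amplification and cell makeup with the genes they are set against. Dio2, the deiodinase that makes active thyroid hormone in brown fat, stood at 6.24 on the GFP and 3.60 on the LacZ array, 6.58 and 7.77 on white and 9.36 and 9.84 on brown arrays. Its LacZ value was near the lower end of the arrays. Cmc2, a mitochondrial protein gene, ran over a narrower range, from 9.97 on the LacZ array to 11.65 on a brown array. Of the 10 genes, Mlxipl (0.982) and Elovl6 (0.981) had the highest Pearson correlation with the mean of the 10, and Acacb (0.704) and Scd2 (0.758) the lowest. Each gene is part of that mean, and genes with a wide range weigh most in it, so these values only describe.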
